A study of Mus musculus with 6 samples.

Results

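The genes described here encode the scaffold of the Usher protein complexes and part of the ankle links of the hair cell (HC) bundle. They are *Myo7a*, *Ush1c*, *Ush1g*, *Gpr98* and *Pdzd7*, chosen by name as members of these complexes, and all 5 were found among the 14865 genes listed for the cochlear duct at postnatal day 8 (P8). *Gpr98* is an older name of *Adgrv1*. RNA-seq libraries were made from C57BL/6 mice of 2 genotypes, with 3 libraries each. *Gfi1*+/+ mice carry both copies of *Gfi1*, which encodes a transcriptional repressor of HCs and blood cells. *Gfi1*cre/+ mice carry 1 normal copy and 1 copy in which part of the coding sequence is replaced by Cre recombinase. Cre is thus made where the *Gfi1* promoter is active. Recombination by Cre, which marks present or past activity of that promoter, was reported in macrophages of the ear as well as HCs. A *Gfi1*+/+ library came from both cochleae of 1 animal, whereas a *Gfi1*cre/+ library came from a pool of 3 animals with 6 cochleae. The question addressed by the comparison is whether loss of 1 *Gfi1* copy alters cochlear gene expression early in postnatal life.

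Hair cells detect sound with a bundle of actin-filled stereocilia that are joined by extracellular links. Usher syndrome, an inherited loss of hearing and sight, is caused by mutation of genes for these links and for the proteins that anchor them. At the upper end of the tip link, the motor myosin VIIa (*Myo7a*), the PDZ-domain scaffold harmonin (*Ush1c*) and the ankyrin-repeat scaffold SANS (*Ush1g*) anchor cadherin 23 (*Cdh23*), which joins protocadherin 15 (*Pcdh15*) from the lower end. Near the base of the stereocilia, the very large adhesion receptor encoded by *Gpr98* forms part of the ankle links, and the PDZ-domain proteins PDZD7 and whirlin (*Whrn*) hold them in place. In the mouse cochlea the ankle links are a feature of the maturing bundle and are lost afterwards.

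The libraries held between 13603908 and 19359753 reads counted on genes. Levels are given as normalized reads, which are counted reads over the size factor of each library. Of 28 HC marker genes written down to check the tissue, 25 were listed, with *Atoh1*, *Tmc2* and *Cabp2* not among them. *Gfi1* itself had between 147 and 160 normalized reads in *Gfi1*+/+ and between 130 and 139 in *Gfi1*cre/+, a count over all of its exons. *Gfi1*+/+ replicate 1 stood apart from the other libraries in neuronal genes, with 12931 summed normalized reads over 13 neuron markers, where the other *Gfi1*+/+ libraries had 5953 and 3893 and the *Gfi1*cre/+ libraries between 3529 and 4439. All 13 neuron markers were lower in *Gfi1*cre/+, 6 of them with an unadjusted p-value under 0.05 by limma, where 50.1% of all genes tested were lower and 2.02% were lower at that threshold. Of 12 supporting cell markers, 8 were lower and 4 higher, with a median log2 fold change of -0.01. The sum of 4 Y-linked genes was at most 2.10 normalized reads in each *Gfi1*+/+ library. In the *Gfi1*cre/+ libraries it was 794, 902 and 1621, so that sex and genotype cannot be told apart in any difference below. From such genes the study took its *Gfi1*cre/+ samples to be mainly male and its *Gfi1*+/+ samples mainly female. *Gfi1*cre/+ replicate 3, with the highest sum, also had the lowest *Ush1c*, *Gpr98* and *Pdzd7* and the highest *Ush1g* of all libraries. Whether sex bears on these levels was not tested. In tissue of many cell types, fewer HCs and less RNA per HC also cannot be told apart.

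Per length of exon the 5 genes spanned a wide range of expression. *Ush1c* had the highest level, with a mean of 502 normalized reads per kb of exon over the 6 libraries (range 468 to 520), above 87.4% of the 14791 genes that had an exon length. *Myo7a* followed with 78.2 (70.2 to 89.8) and *Pdzd7* with 55.3 (50.3 to 60.2). *Ush1g* had 6.97 normalized reads per kb (5.23 to 9.70). *Gpr98* had 3.20 (2.31 to 3.65), above only 0.636% of the genes, but in normalized reads not divided by length it lay above 15.3% of the listed genes. The ranges of neighbours in the order per kb did not overlap. The order was the same with the longest transcript as the length, where *Ush1c* had 629 normalized reads per kb and *Gpr98* had 4.11.

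The genes of the partner proteins spread over the same range. *Cib2*, which encodes a calcium-binding subunit of the mechanotransduction complex, had 614 normalized reads per kb of exon and lay above *Ush1c* in every library, but with the longest transcript as the length it had 614 and *Ush1c* had 629. *Whrn* had 64.2 and lay between *Myo7a* and *Pdzd7*, overlapping both, but with the longest transcript it had 116.4 and lay above the 89.2 of *Myo7a* and the 68.7 of *Pdzd7*. The tip link cadherins had lower levels, with 26.3 for *Cdh23* and 5.79 for *Pcdh15*. With the longest transcript they had 40.1 and 15.1, and *Pcdh15* then lay above the 6.97 of *Ush1g* instead of below it. *Gpr98*, the gene of the link itself, thus had far fewer reads per kb than *Pdzd7* and *Whrn*, the genes of its PDZ-domain anchors.

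**Figure D1:**
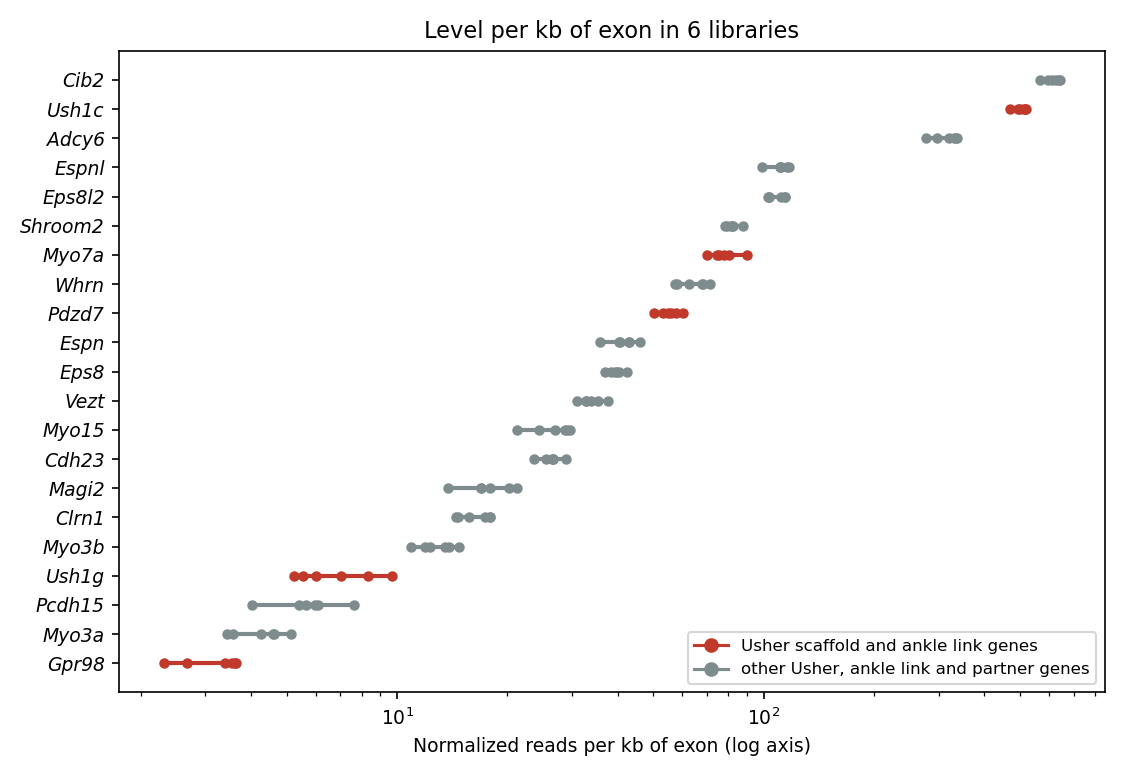
Normalized reads per kb of exon (log axis) in each of the 6 libraries for the 5 Usher scaffold and ankle link genes and 16 partner genes, with points for libraries and lines for their range. *Ush1c* lies between 468 and 520 and *Gpr98* between 2.31 and 3.65.

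*Myo7a* is a minus-strand gene of chromosome 7 that runs from 98051060 to 98119524 in mm10 (GRCm38), the build of all positions given here. Its longest annotated transcript has 49 exons and 7506 bases. It encodes the motor that carries and holds the scaffold at the tip link. In the *Gfi1*+/+ replicates, taken in the order 1, 2, 3 here and below, *Myo7a* had 601, 669 and 769 normalized reads, and in the *Gfi1*cre/+ replicates it had 647, 691 and 641. The *Gfi1*cre/+ libraries thus all lay within the range of the *Gfi1*+/+ libraries. The spread between *Gfi1*+/+ libraries, with a coefficient of variation (CV) of 12.4%, was larger than counting error, which alone gives 4.03%. The log2 fold change of *Gfi1*cre/+ against *Gfi1*+/+ was -0.04 (95% interval -0.24 to 0.17), and it turned to 0.06 without *Gfi1*+/+ replicate 3, the library with the highest level. With the neuron markers' mean level in each library added as a covariate, a setting chosen after the data had been seen, it was -0.19 (limma, unadjusted p = 0.0429, Benjamini-Hochberg adjusted p = 0.9995).

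*Ush1c* lies on the minus strand of chromosome 7, from 46195350 to 46238503, and its longest transcript has 27 exons. Its product harmonin binds both myosin VIIa and the tails of the tip link cadherins. *Ush1c* had 2003, 1982 and 1975 normalized reads in the *Gfi1*+/+ replicates and 1929, 1898 and 1802 in the *Gfi1*cre/+ replicates. Each *Gfi1*cre/+ library lay below each *Gfi1*+/+ library, and the mean was lower by 5.56% (1987 ± 14.9 in *Gfi1*+/+ and 1876 ± 66.0 in *Gfi1*cre/+, SD, n = 3). The *Gfi1*+/+ libraries lay closer together than counting error would place them, with a CV of 0.750% where the reads alone give 2.37%. The log2 fold change was -0.08 (standard error 0.0515, 95% interval -0.20 to 0.03, limma, unadjusted p = 0.141), and it was -0.05 without *Gfi1*cre/+ replicate 3. Of the 3849 exon bases of *Ush1c*, 120 are shared with *Gm9860* on the opposite strand.

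*Ush1g* is a small gene of 3 exons on the minus strand of chromosome 11, from 115315192 to 115322041. It encodes SANS, which bridges harmonin and myosin VIIa. *Ush1g* had 17.3, 19.9 and 23.2 normalized reads in the *Gfi1*+/+ replicates and 18.3, 27.5 and 32.1 in the *Gfi1*cre/+ replicates, which rest on between 14 and 34 reads. The genotypes overlapped, since *Gfi1*cre/+ replicate 1 lay below 2 of the *Gfi1*+/+ libraries. No library reached the minimum of 40 normalized reads for testing. From the reads alone, the ratio of *Gfi1*cre/+ to *Gfi1*+/+ was 1.27 with an exact 95% interval of 0.896 to 1.82, which covers counting error only. The difference of mean log2 levels was 0.33. It was 0.16 without *Gfi1*cre/+ replicate 3 and 0.55 without *Gfi1*cre/+ replicate 1.

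*Gpr98* spans 538 kb on the minus strand of chromosome 13, from 81095068 to 81633154. Its longest transcript has 90 exons and 19338 bases, of which 18894 are coding. *Gpr98* had 90.1, 88.0 and 90.7 normalized reads in the *Gfi1*+/+ replicates and 84.4, 66.6 and 57.6 in the *Gfi1*cre/+ replicates. Each *Gfi1*cre/+ library lay below each *Gfi1*+/+ library, although *Gfi1*cre/+ replicate 1 did so by a small margin. The mean was lower by 22.4% (89.6 ± 1.45 in *Gfi1*+/+ and 69.5 ± 13.7 in *Gfi1*cre/+, SD, n = 3). These values rest on 73, 84 and 86 reads in *Gfi1*+/+ and on 97, 75 and 61 reads in *Gfi1*cre/+, where replicate 1 was the deepest library of the 6. The exact 95% counting interval of *Gfi1*cre/+ replicate 1, from 68.5 to 103 normalized reads, held all 3 *Gfi1*+/+ values. Those of replicate 2, from 52.4 to 83.5, and replicate 3, from 44.0 to 73.9, held none of them. The *Gfi1*+/+ libraries had counting intervals of their own, from 70.6 to 113, 70.2 to 109 and 72.6 to 112. Each of these overlapped the intervals of *Gfi1*cre/+ replicates 2 and 3. The *Gfi1*+/+ libraries again lay closer together than their counts allow on average, with a CV of 1.62% against 11.1% from counting alone. In *Gfi1*cre/+ the CV was 19.7%, against 11.4% from counting.

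*Pdzd7* lies on the minus strand of chromosome 19, from 45026906 to 45045717, and its longest transcript has 16 exons. Its product assembles the ankle link complex with whirlin. *Pdzd7* had 222, 244 and 233 normalized reads in the *Gfi1*+/+ replicates and 226, 216 and 204 in the *Gfi1*cre/+ replicates. The genotypes overlapped only through *Gfi1*+/+ replicate 1 and *Gfi1*cre/+ replicate 1. The mean was lower by 7.64%, and the CV was 4.67% and 5.23% in the genotypes, each below the 6.90% and 6.46% expected from counting. The log2 fold change was -0.11 (95% interval -0.31 to 0.08), and -0.08 without *Gfi1*cre/+ replicate 3. Of its 4055 exon bases, 206 are shared with *Lzts2* on the opposite strand.

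**Figure D2:**
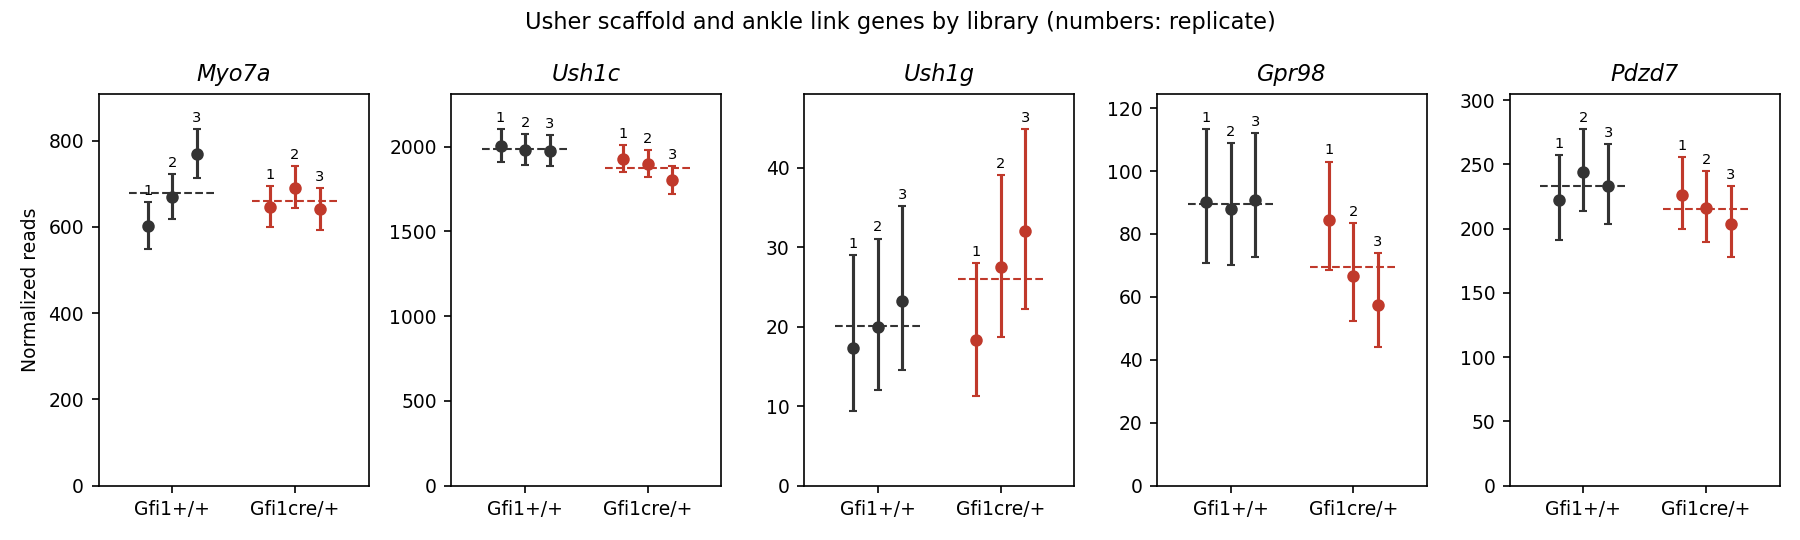
Normalized reads of each gene by library, with the exact 95% counting interval as bars, dashed lines at the genotype means and numbers for replicates. *Gpr98* and *Ush1c* are lower in every *Gfi1*cre/+ library than in every *Gfi1*+/+ library, whereas the counting interval of *Gpr98* in *Gfi1*cre/+ replicate 1 holds the *Gfi1*+/+ values.

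The sequences just before the starts of *Gpr98* and *Ush1c* are shown because these were the members whose genotypes did not overlap, and that of *Pdzd7* because it kept the steadiest ratio to *Ush1c*. Each is the 250 bases before the RefSeq start (GRCm38.p6), from chr13:81633145-81633394, chr7:46238491-46238740 and chr19:45045773-45046022, all minus strand and written 5′ to 3′. Capitals mark E-boxes (CANNTG), the general form of the letters read by basic helix-loop-helix factors.
*Gpr98*: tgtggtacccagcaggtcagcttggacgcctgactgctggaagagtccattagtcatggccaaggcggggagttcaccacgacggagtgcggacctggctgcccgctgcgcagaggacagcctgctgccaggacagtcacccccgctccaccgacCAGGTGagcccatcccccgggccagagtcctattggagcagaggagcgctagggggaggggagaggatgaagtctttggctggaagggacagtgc
*Ush1c*: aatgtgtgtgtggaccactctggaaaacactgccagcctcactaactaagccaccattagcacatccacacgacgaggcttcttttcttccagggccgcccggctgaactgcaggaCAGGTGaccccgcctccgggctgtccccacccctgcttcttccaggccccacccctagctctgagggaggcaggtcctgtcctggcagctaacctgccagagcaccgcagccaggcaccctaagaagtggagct
*Pdzd7*: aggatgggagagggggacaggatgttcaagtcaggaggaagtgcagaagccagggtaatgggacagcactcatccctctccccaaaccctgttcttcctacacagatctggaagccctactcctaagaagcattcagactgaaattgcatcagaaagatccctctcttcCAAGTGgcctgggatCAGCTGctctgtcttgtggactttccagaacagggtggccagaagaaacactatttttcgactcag
An E-box was present in 66.2% of all 32851 windows of this kind. The windows of *Gpr98* and *Ush1c* shared the form CAGGTG, present on either strand in 17.2% of windows, at 95 and 134 bases before the start. The letters AATC, the core of the motif bound by GFI1, were on neither strand of these windows nor of the 2 windows of *Myo7a*, and were in 69.0% of all windows. A match or its absence describes these letters only. No window was given for *Ush1g*.

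Between the genotypes, expression was compared with limma on log2(normalized reads + 1) over the 14455 genes that reached 40 normalized reads in 1 library or more. This scale understates the change of genes with few reads. *Myo7a*, *Ush1c*, *Gpr98* and *Pdzd7* were tested, and the log2 fold change of each was below 0, with a median of -0.10 where the median of all genes tested was -0.00012 and 50.1% were below 0. No member had an adjusted p-value under 0.05, which 0.0277% of all genes tested had. *Gpr98* had an unadjusted p-value under 0.05 and was lower in *Gfi1*cre/+, as were 2.02% of all genes tested, and no member was higher at that threshold, as 1.02% of all genes were. Its log2 fold change was -0.38 (standard error 0.167, 95% interval -0.76 to -0.0022, limma, unadjusted p = 0.0489, Benjamini-Hochberg adjusted p = 0.999). In 2 of the 4 genes, *Gpr98* and *Ush1c*, all *Gfi1*cre/+ libraries lay below all *Gfi1*+/+ libraries, which was so for 4.07% of all genes tested, and in none did they lie above, which was so for 3.45%. For each of both, the exact permutation test over libraries gave p = 0.1 (two-sided), and no smaller value can be reached with 3 libraries in each genotype.

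The log2 fold change of *Gpr98* kept its direction in each of the 22 other settings and library omissions that tested it, but its unadjusted p-value was above 0.05 in 15 of them. Its log2 fold change was -0.53 without *Gfi1*cre/+ replicate 1 and -0.25 without *Gfi1*cre/+ replicate 3, where the unadjusted p-value of limma was 0.0140 and 0.182. On the recovered reads the log2 fold change was -0.36 in both count tests, with an unadjusted p-value of 0.0639 by edgeR and 0.134 by DESeq2. From the reads alone, the ratio of *Gfi1*cre/+ to *Gfi1*+/+ was 0.780 with an exact 95% counting interval of 0.649 to 0.937. Gene length was examined beside *Gpr98* because of its long transcript. The 1399 tested genes with at least 10 kb of exon had a median log2 fold change of 0.0083, and *Gpr98* had -0.36 after correction for exon length and GC content (limma, unadjusted p = 0.0659).

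Of the 17 partner genes considered, 16 were listed and tested, and *Clrn2* was not listed. There were 7 lower and 9 higher in *Gfi1*cre/+, with a median log2 fold change of 0.01. The genes not described singly here, *Myo3a*, *Myo3b*, *Eps8*, *Eps8l2*, *Magi2*, *Shroom2*, *Espn* and *Espnl*, had log2 fold changes from -0.12 to 0.15. None had an unadjusted p-value under 0.05, which 3.04% of all genes tested had, or an adjusted one, in limma's test. In 1 of the 16, *Cib2*, the genotypes did not overlap, as in 7.52% of all genes tested. *Cib2* had 901, 915 and 921 normalized reads in *Gfi1*+/+ and 854, 813 and 875 in *Gfi1*cre/+, with means of 912 and 847. *Cdhr2*, *Cdhr5*, *Myo7b* and *Anks4b*, which form the counterpart of this scaffold with harmonin in intestinal microvilli, were not listed.

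At the ankle links, *Whrn*, the gene of the whirlin scaffold, had 421, 425 and 498 normalized reads in *Gfi1*+/+ and 458, 502 and 525 in *Gfi1*cre/+, with a log2 fold change of 0.14 (95% interval -0.05 to 0.34). *Vezt*, which encodes the ankle link protein vezatin, had a log2 fold change of -0.12 (95% interval -0.28 to 0.04). *Adcy6*, an adenylyl cyclase found at the ankle links, had 0.12 (95% interval -0.05 to 0.28). The genotypes overlapped in *Whrn*, *Vezt* and *Adcy6*, and each interval held 0.

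At the tip link, the log2 fold change was -0.08 (95% interval -0.25 to 0.10) for *Cdh23* and -0.01 (95% interval -0.48 to 0.45) for *Pcdh15*, whose *Gfi1*+/+ libraries had a CV of 30.8%. It was 0.05 (95% interval -0.33 to 0.43) for *Clrn1*, a membrane protein of Usher syndrome. *Myo15*, the motor that carries whirlin to stereocilia tips, had the lowest value of the 16 partner genes tested. *Myo15* had 378, 372 and 345 normalized reads in *Gfi1*+/+ and 367, 311 and 272 in *Gfi1*cre/+, with a log2 fold change of -0.21 (95% interval -0.46 to 0.03, limma, unadjusted p = 0.0817). The genotypes of *Myo15* overlapped through *Gfi1*cre/+ replicate 1, the library that was also nearest to *Gfi1*+/+ in *Gpr98*.

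**Figure D3:**
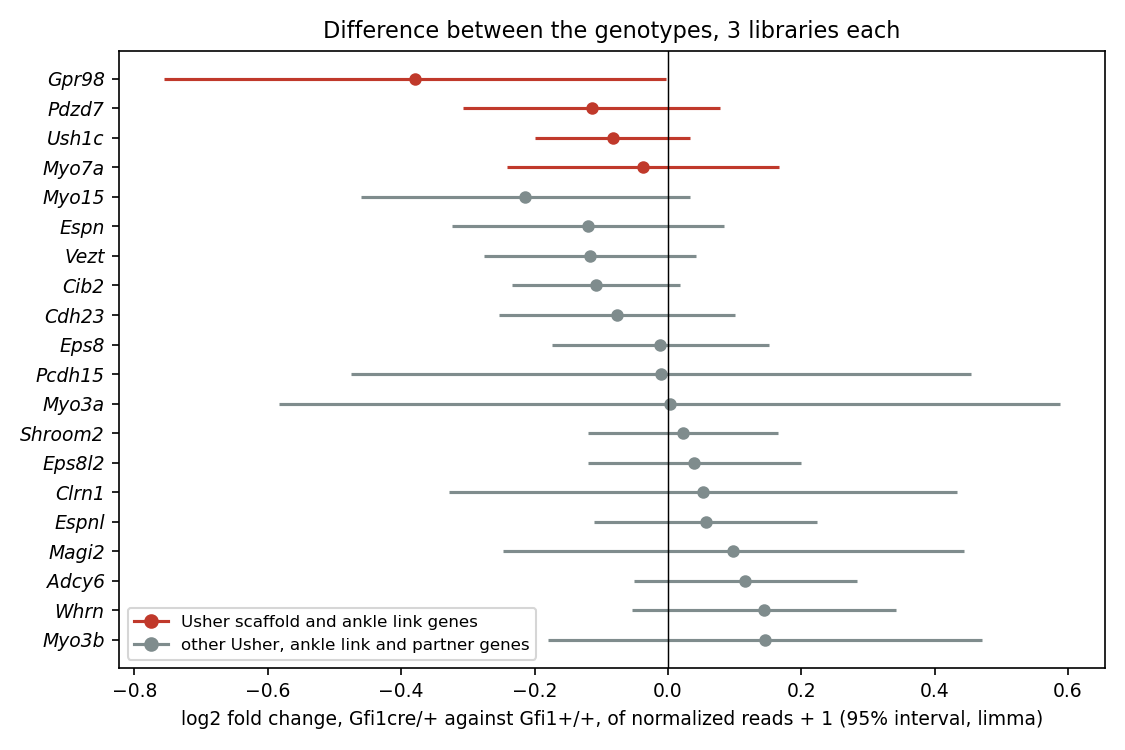
Log2 fold changes of *Gfi1*cre/+ against *Gfi1*+/+ (points) with 95% intervals from limma (lines) for the 4 tested Usher scaffold and ankle link genes and the 16 tested partner genes. The 4 genes lie between -0.38 and -0.04 and the partner genes between -0.21 and 0.15, and only the interval of *Gpr98* leaves out 0.

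Since the proteins of these genes act in the HC bundle, their levels were set against the HC markers of the same library. The libraries are of whole tissue, and how much of the RNA of these genes came from other cells was not tested. Of the 23 HC markers tested, 19 were lower and 4 higher in *Gfi1*cre/+, with a median log2 fold change of -0.12 and a range from -0.30 for *Kcna10* to 0.07 for *Clic5*. By limma, none of them was under 0.05 in its unadjusted or adjusted p-value. The summed level of the 25 listed markers was between 9038 and 10081 normalized reads in *Gfi1*+/+ and between 8598 and 9059 in *Gfi1*cre/+. The log2 fold changes of *Ush1c*, *Pdzd7* and *Myo7a* lay within the range of these markers and that of *Gpr98* lay below it. The part of HC number in the differences was not tested.

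The log2 ratio of *Gpr98* to the mean of the 25 HC markers was -1.27, -1.23 and -1.22 in the *Gfi1*+/+ libraries. In the *Gfi1*cre/+ libraries it was -1.27, -1.59 and -1.79. On this scale *Gfi1*cre/+ replicate 1 was level with *Gfi1*+/+ replicate 1, and the other *Gfi1*cre/+ libraries lay below all *Gfi1*+/+ libraries. The difference of *Gfi1*cre/+ from *Gfi1*+/+ was -0.31 (exact permutation test, two-sided p = 0.2). For *Ush1c* it was -0.02 (exact permutation test, p = 0.7), and for *Pdzd7* it was -0.05 (exact permutation test, p = 0.6). For *Myo7a* it was 0.03 (exact permutation test, p = 0.9), and for *Ush1g* it was 0.39 (exact permutation test, p = 0.3). The sign turned with the libraries included for *Ush1c*, *Pdzd7* and *Myo7a*. Relative to HC markers, the non-overlap of both *Ush1c* and *Gpr98* was no longer present. The mean log2 level of these markers was itself lower in every *Gfi1*cre/+ library than in every *Gfi1*+/+ library. As deviations from each marker's mean it was 0.0747, -0.00509 and 0.0309 in *Gfi1*+/+ and -0.0191, -0.0371 and -0.0443 in *Gfi1*cre/+. The ratios therefore take up this shift of the markers as well.

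**Figure D4:**
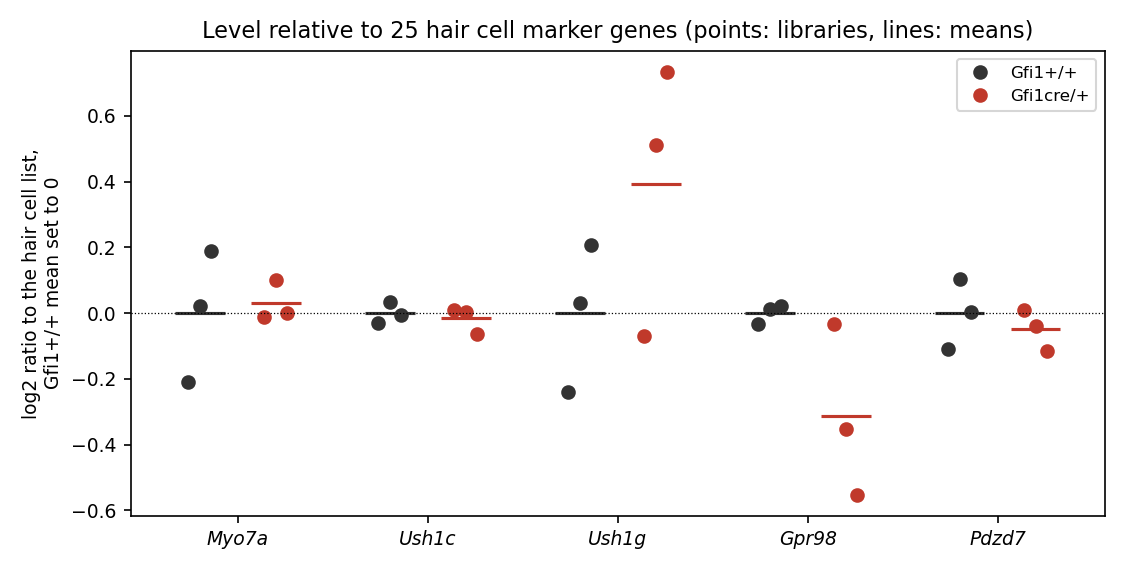
Log2 ratio of each gene to the mean of 25 HC marker genes in the same library, with the *Gfi1*+/+ mean of each gene set to 0, points for libraries and lines for genotype means. *Gpr98* lies at a mean difference of -0.31 and *Ush1c* at -0.02, and the genotypes overlap in all 5 genes.

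Ratios between the 5 genes within a library do not depend on its scaling, and all 10 pairs were compared. The steadiest was that of *Ush1c* to *Pdzd7*, which ran from 8.10 to 8.98 over the 6 libraries on the scale of normalized reads + 1. Its log2 ratio had an SD of 0.0538 over the 6 libraries. Counting error of *Pdzd7* alone is larger, with a CV of 6.90% in *Gfi1*+/+ and 6.46% in *Gfi1*cre/+. The steadiness therefore does not show that both genes vary together. The ratio of *Ush1c* to *Gpr98* was 22.0, 22.3 and 21.5 in *Gfi1*+/+ and 22.6, 28.1 and 30.8 in *Gfi1*cre/+. It was the pair whose genotypes did not overlap, with a log2 difference of 0.30 (exact permutation test, two-sided p = 0.1, adjusted p = 0.5 by Benjamini-Hochberg over 10 pairs). The ratio of *Gpr98* to its ankle link partner *Pdzd7* was 0.408, 0.363 and 0.392 in *Gfi1*+/+ and 0.376, 0.312 and 0.286 in *Gfi1*cre/+, a log2 difference of -0.26 (exact permutation test, p = 0.2, adjusted p = 0.5). Of these, *Gfi1*cre/+ replicates 2 and 3 lay below all *Gfi1*+/+ libraries. Within the scaffold, the ratio of *Myo7a* to *Ush1c* ran from 0.300 to 0.390 in *Gfi1*+/+ and from 0.336 to 0.364 in *Gfi1*cre/+, inside that range. No pair had an adjusted p-value under 0.5, and none could have passed 0.05 with 3 libraries against 3.

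The likeness of other genes was measured by the SD over the 6 libraries of their log2 ratio to each member, among 12091 genes whose mean reached 100 normalized reads. Nearest to *Gpr98* were *Zfp932* with 0.0699, *Spred3* with 0.0725 and *Chrnb4* with 0.0754, and 5 genes in all were under 0.1. Nearest to *Ush1c* were *Arid4b* with 0.0112, *Ube2b* with 0.0155 and *Stra13* with 0.0164, but 4674 genes were under 0.1, since *Ush1c* varied little. Nearest to *Pdzd7* were *9930012K11Rik*, *Zbtb6* and *Paxbp1* with between 0.0217 and 0.0270, and 2201 genes were under 0.1. Nearest to *Myo7a* were *Anks6* with 0.0230, *Trim11* with 0.0269 and *Pwp2* with 0.0293, and 2085 genes were under 0.1. For *Ush1g*, with the fewest reads, the nearest were *Bpifb3* with 0.111, *Dlx3* with 0.127 and *Lrrc32* with 0.147. No HC marker or partner gene was among these 3 nearest genes of any member. At most 25 HC markers and 16 partner genes stood among the 12091, so their absence says little. For each member, the SDs of the nearest genes were also smaller than its own counting error. That error was a CV of 11.1% and 11.4% for *Gpr98* in *Gfi1*+/+ and *Gfi1*cre/+, and 2.37% and 2.19% for *Ush1c*. The nearest of 12091 genes over 6 libraries were therefore not shown to vary with a member beyond counting error.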

How the data were processed

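RNA of P8 cochlear ducts was sequenced as paired ends after TruSeq preparation. The authors aligned reads to mm10 with Tophat, counted uniquely mapped reads by HTSeq-count, and took genes with 40 reads or more as expressed. Annotation, strand setting and versions are not given in the sources used here. The signal deposited by the authors, which their methods call quantile-normalized, was a whole number of reads divided by 1 size factor per library in 100% of values (tolerance 0.011). Recovered reads totalled 13603908 to 19359753 per library. Column names gave genotype and replicate.

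The deposited values were tested with limma 3.58.1 (lmFit, eBayes with trend, two-sided, Benjamini-Hochberg) in R 4.3.3, with edgeR 4.0.16 and DESeq2 1.42.0 on recovered reads as alternatives, which called 4 and 10 genes at an adjusted p-value under 0.05 where limma called 4 of 14455. The limma steps were tested on simulated counts. Exon lengths came from GENCODE M21 (14791 of 14865 identifiers matched), and promoters from RefSeq. Counting intervals are exact (Poisson, or binomial for ratios) and cover counting error only. Replicates of 1 genotype differed by more than counting noise, and unequally so. The chi-square per gene was between 19.6 and 21.3 for pairs of *Gfi1*+/+ libraries and between 3.92 and 4.69 for pairs of *Gfi1*cre/+ libraries. The limma fit took 1 variance per gene for both genotypes. Members and lists were chosen with earlier results of these data known: all members, partner genes, HC, neuron, supporting cell and Y-linked markers, and the 3 genes nearest to each member in log2 ratio. *Cib2*, *Myo15* and *Kcna10* with *Clic5* were given values as the exception or extremes of their lists. 1 further gene, counted in no list above, is not reported here.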

Additional observations from a re-analysis of the deposited data

How the results depend on the processing

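Small numbers of reads limit *Gpr98* and *Ush1g*, and 3 libraries per genotype limit every test. The alternatives were other pseudocounts, minima, variance models, scalings, tools, a correction for exon length and GC content, a replicate block, each library left out, and the neuron list score as a covariate, chosen after the data had been seen. Over them the log2 fold change ran from -0.53 to -0.25 for *Gpr98*, -0.10 to -0.05 for *Ush1c* and -0.17 to -0.08 for *Pdzd7*, with no adjusted p-value under 0.05. That of *Myo7a* ran from -0.122 to 0.0552 with a library left out, positive without *Gfi1*+/+ replicate 3, and from -0.19 to -0.01 otherwise. With a mean of 200 normalized reads as the minimum, *Gpr98* was not tested.

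The 4 genes of all 14455 at an adjusted p-value under 0.05 were the Y-linked *Ddx3y*, *Kdm5d*, *Uty* and *Eif2s3y*. Where a mean of 200 was the minimum there were 0, since all 4 lay under it (229 at an unadjusted p-value under 0.05 by limma), and there were 10 by DESeq2. With a library left out there were between 0 and 48, with 8 without *Gfi1*+/+ replicate 2, 48 without *Gfi1*+/+ replicate 3, and 0 without *Gfi1*cre/+ replicate 2 or 3 (212 and 249 at an unadjusted p-value under 0.05). The cause of the changes by DESeq2 and with a library left out was not tested.

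Relative to the HC list with its median in place of its mean, *Ush1c* differed by 0.0239. With a library left out this difference ran from -0.0306 to 0.00729 for *Ush1c*, -0.0758 to 0.123 for *Myo7a* and -0.102 to 0.00504 for *Pdzd7*. It ran from -0.45 to -0.19 for *Gpr98* and 0.22 to 0.62 for *Ush1g*. The log2 ratio difference ran from -0.0452 to 0.14 for *Myo7a* to *Ush1c* and from -0.0035 to 0.0714 for *Ush1c* to *Pdzd7*.

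The deviations of same-numbered libraries from their genotype means correlated over genes at -0.0944, 0.107 and -0.0326. Those of libraries with unlike numbers correlated at between -0.156 and 0.150. These values cannot decide whether equal replicate numbers mark paired libraries, since deviations from a mean of 3 libraries depend on each other. With the replicate block the unadjusted p-value of *Gpr98* was 0.0625 (limma, adjusted p = 0.999), at the same log2 fold change of -0.38, and 4 genes had an adjusted p-value under 0.05.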
